A study of Mus musculus with 12 samples.

Results

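The report concerns 9 genes of the fat cell: the secreted adipokines Adipoq, Cfd, Retn and Lep, the transcription factors Pparg and Cebpa, and the metabolic or structural genes Fabp4, Sncg and Car3. They were taken by name from the deposited table, in which all 9 stood among 15170 genes, and they were chosen with their levels in BG136 and vehicle tumors already known, so that contrast is described below and not tested. Each sample was a block of a tumor grown from MC38, a mouse colon adenocarcinoma line, in mice labelled wild type. The mice had received BG136, a soluble β-1,3/1,6-glucan, or vehicle, both by intravenous injection and without an antibody. Levels are in FPKM, fragments per kilobase of transcript scaled to library size, which allows levels of different genes to be compared. Of 6 BG136 libraries, replicates 7 and 9 differed by less than sampling noise and were averaged as 1 sample, called 7-9, which left 5 BG136 samples and 6 vehicle samples. The labels give no dose, time or animal age, and do not state whether each sample is from a different animal, so p-values measure only the spread between these samples, which may be technical. Reads recovered from the table numbered 14828786 to 18125931 for each of 10 libraries, while BG136 replicate 7 had 33231037 and BG136 replicate 9 had 32956232.

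White adipocytes store triglyceride in a single large droplet and release hormones that act on feeding, insulin sensitivity and inflammation. PPARG, a nuclear receptor, and C/EBPα, a basic leucine zipper factor, drive the conversion of precursor cells into adipocytes and then maintain the expression of adipokines and lipid-handling genes. Both factors are also made by cells that are not adipocytes, C/EBPα by myeloid cells and PPARG by some macrophages. In such bulk samples, fewer cells of a type and less RNA per cell cannot be told apart.

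The hormone genes were lower in BG136 tumors, most of all Cfd and Adipoq, whose mean levels were 0.386 and 0.382 of the vehicle mean, followed by Retn at 0.422 and Lep at 0.596. By this ratio the transcription factor genes differed less: Pparg stood at 0.722 of the vehicle mean and Cebpa at 1.05. For Pparg 4 of the 5 BG136 samples still lay below all vehicle samples. Fabp4, Sncg and Car3 lay between Retn and Pparg, at 0.603, 0.518 and 0.559. The mean was lower in BG136 tumors for 8 of the 9 genes, Cebpa being the exception, and 4840 of the 11356 genes that passed the filter on low values also had a negative difference. Within groups the hormone genes varied together, in part through BG136 replicate 6 and vehicle replicate 11. The ratio of Cfd to Adipoq was 7.20 to 7.58 in BG136 tumors, a band narrower than counting error.

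The upstream regions of Adipoq and of Cfd, the gene most closely correlated with it within groups, are shown with those of Lep, which holds the one palindromic C/EBP site found, and of Cebpa, the member with the smallest spread. Each covers 250 bases before to 50 after the annotated start, 5′ to 3′ on the gene's strand, from RefSeq promoters of build GRCm38.p6. This build differs from the one used for the table. Adipoq lies at chr16:23146286-23146585, Cfd at chr10:79890603-79890902, Lep at chr6:29059971-29060270 and Cebpa at chr7:35119043-35119342, all on the plus strand. Capitals mark every motif match on either strand.
Adipoq: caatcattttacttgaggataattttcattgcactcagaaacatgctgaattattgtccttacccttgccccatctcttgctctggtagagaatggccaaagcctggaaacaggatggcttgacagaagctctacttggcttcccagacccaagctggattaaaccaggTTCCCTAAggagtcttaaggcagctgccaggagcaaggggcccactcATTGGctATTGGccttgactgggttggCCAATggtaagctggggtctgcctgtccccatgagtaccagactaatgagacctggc
Cfd: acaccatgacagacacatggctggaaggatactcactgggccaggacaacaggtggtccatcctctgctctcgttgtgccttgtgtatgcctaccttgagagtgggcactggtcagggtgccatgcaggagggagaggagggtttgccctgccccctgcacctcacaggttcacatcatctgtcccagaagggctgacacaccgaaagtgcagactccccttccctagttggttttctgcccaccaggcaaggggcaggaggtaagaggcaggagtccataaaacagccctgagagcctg
Lep: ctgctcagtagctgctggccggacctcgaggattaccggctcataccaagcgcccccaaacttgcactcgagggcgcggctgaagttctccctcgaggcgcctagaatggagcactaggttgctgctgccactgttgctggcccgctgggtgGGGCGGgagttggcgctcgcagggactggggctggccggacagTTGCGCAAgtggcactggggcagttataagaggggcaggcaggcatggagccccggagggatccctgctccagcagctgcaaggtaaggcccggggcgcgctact
Cebpa: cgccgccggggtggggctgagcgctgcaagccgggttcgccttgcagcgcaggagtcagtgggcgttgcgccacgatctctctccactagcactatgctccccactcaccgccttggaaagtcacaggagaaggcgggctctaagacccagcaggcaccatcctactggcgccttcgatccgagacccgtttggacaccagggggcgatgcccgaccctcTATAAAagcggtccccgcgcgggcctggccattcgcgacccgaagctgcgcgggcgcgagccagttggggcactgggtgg

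The motifs searched were the palindromic C/EBP site TTGCGCAA and its relaxed form TTNNGNAA, the CCAAT box, the TATAAA box, the GC box GGGCGG, the E-box CACGTG, and DR1, the PPARG and RXR element made of 2 AGGTCA copies spaced by 1 base, with at most 2 mismatches. Every TTGCGCAA is also a match of the relaxed form. The Lep window held TTGCGCAA at bases -55 to -48 from the start, a sequence present in 0.183% of the 32851 promoters in the table, and a GC box (35.7% of promoters). The Adipoq window held a match of the relaxed form at -81 to -74 (40.7% of promoters) and 3 CCAAT boxes, of which 2 were on the opposite strand (37.4% of promoters). The Cebpa window held a TATAAA box at -30 to -25 (13.6% of promoters). The Cfd and Retn windows held no match, and DR1, found in 3.86% of all promoters, was in none of the members' windows. These matches describe letters in a short window and say nothing of binding. Of the 9 members 7 had an entry, Pparg with 3 starts, and Fabp4 and Car3 had none.

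Adipoq encodes adiponectin, which is made almost only by adipocytes. Adipoq was at 3.07, 1.31, 0.870, 4.04 and 1.37 FPKM in BG136 replicates 1, 2, 4, 6 and 7-9, against a lowest, median and highest of 3.79, 5.06 and 9.36 FPKM in vehicle tumors. Replicate 6 alone of the BG136 tumors reached the vehicle range, and vehicle replicate 11 stood far above the other vehicle tumors. The means were 2.13 ± 1.35 FPKM (SD, n = 5) in BG136 tumors and 5.58 ± 1.95 FPKM (SD, n = 6) in vehicle tumors, a difference of -1.13 on the log2(FPKM + 1) scale. Without vehicle replicate 11 the vehicle mean was 4.82 ± 0.69 FPKM.

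Cfd encodes adipsin, the complement protease factor D. Cfd was at 22.4, 9.51, 6.27, 30.6 and 10.1 FPKM in the BG136 tumors in the same order, against a lowest, median and highest of 27.5, 35.8 and 74.3 FPKM in vehicle tumors. The order of the BG136 tumors was that of Adipoq, with replicate 6 again inside the vehicle range. Cfd averaged 15.8 ± 10.3 FPKM in BG136 tumors and 40.8 ± 17.2 FPKM in vehicle tumors, a difference of -1.45. It rested on 97 to 1082 recovered reads per library, the largest number among the hormones.

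Retn encodes resistin, which in mice comes mainly from fat. Retn was at 0.777, 0.367, 0.139, 1.86 and 0.258 FPKM in the BG136 tumors, against a lowest, median and highest of 1.09, 1.41 and 2.95 FPKM in vehicle tumors. BG136 replicate 6 exceeded 5 of the 6 vehicle tumors while the other 4 BG136 samples lay below all of them, so the coefficient of variation was 103% in BG136 tumors and 42.1% in vehicle tumors. Retn averaged 0.680 ± 0.702 FPKM in BG136 tumors and 1.61 ± 0.68 FPKM in vehicle tumors, a difference of -0.69. Retn rested on few reads: BG136 replicate 4 held 3, with a 95% Poisson interval of 0.619 to 8.77 that covers counting error only, and vehicle replicate 11 held 60. Retn passed the filter through the vehicle tumors, being at or above 1 FPKM in 6 vehicle samples and 1 BG136 sample.

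Lep encodes leptin, which reports fat stores to the brain. Lep was at 0.171, 0.0828, 0.0914, 0.155 and 0.121 FPKM in the BG136 tumors, against a lowest, median and highest of 0.136, 0.193 and 0.350 FPKM in vehicle tumors, and the groups overlapped. Lep was under the filter, below 1 FPKM in every sample, and rested on 4 to 18 reads per library. The difference of -0.10 on the log2(FPKM + 1) scale understates the ratio of means, which was 0.596. With so few reads the intervals of single libraries overlapped widely: 4 reads in BG136 replicate 2 had an interval of 1.09 to 10.2, and 13 reads in vehicle replicate 1 one of 6.92 to 22.2.

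**Figure D1:**
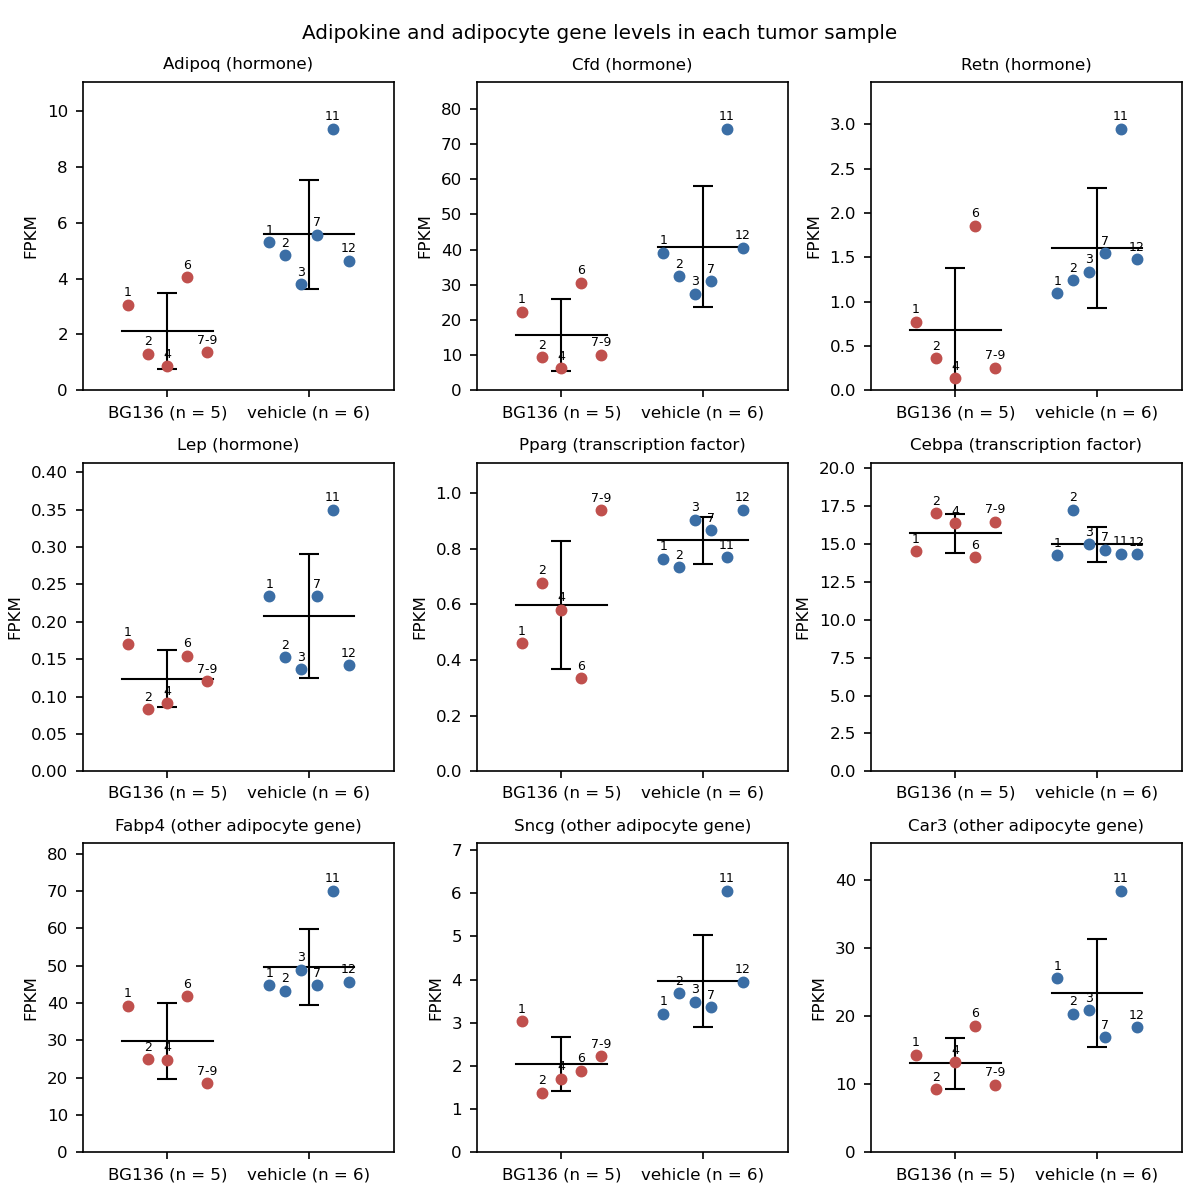
FPKM of the 9 genes in each sample, numbered by replicate (one panel per gene, linear axis from 0); bars give the mean and SD of 5 BG136 and 6 vehicle samples. BG136 replicates 2, 4 and 7-9 are low for the hormone genes, replicate 6 lies within the vehicle range for the hormone genes and Car3, and Cebpa spans a narrow range.

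Pparg, the master regulator of adipocyte formation, was at 0.460, 0.678, 0.581, 0.335 and 0.938 FPKM in the BG136 tumors, against a lowest, median and highest of 0.734, 0.818 and 0.940 FPKM in vehicle tumors. Here the order of the BG136 tumors was nearly the reverse of that for the hormones: replicate 6, highest for Adipoq, was lowest for Pparg, and replicate 7-9 lay at the top of the vehicle range. The means were 0.599 ± 0.229 FPKM in BG136 tumors and 0.830 ± 0.085 FPKM in vehicle tumors, a difference of -0.20. Pparg was under the filter, below 1 FPKM in every sample, and rested on 18 to 105 reads per library.

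Cebpa, which encodes C/EBPα, was at 14.5, 17.0, 16.3, 14.1 and 16.5 FPKM in the BG136 tumors, against a lowest, median and highest of 14.3, 14.5 and 17.2 FPKM in vehicle tumors. The groups overlapped almost completely. Cebpa averaged 15.7 ± 1.3 FPKM in BG136 tumors and 15.0 ± 1.2 FPKM in vehicle tumors, a difference of 0.06. Its highest sample was 1.22 times its lowest over all 11 samples, whereas this ratio was 10.8 for Adipoq, 11.9 for Cfd and 21.3 for Retn. With 590 to 1436 reads per library, Cebpa was measured far more deeply than Pparg.

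Fabp4 encodes the fatty acid carrier of adipocytes, which macrophages and capillary endothelium also make. Fabp4 was at 39.3, 24.99, 24.81, 41.9 and 18.6 FPKM in the BG136 tumors, against a lowest, median and highest of 43.4, 45.2 and 70.1 FPKM in vehicle tumors. All BG136 tumors lay below all vehicle tumors, although replicates 1 and 6 did so narrowly. The means were 29.9 ± 10.1 FPKM in BG136 tumors and 49.6 ± 10.2 FPKM in vehicle tumors, a difference of -0.75.

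Sncg encodes γ-synuclein, a protein of peripheral neurons and adipocytes. Sncg was at 3.04, 1.38, 1.71, 1.89 and 2.23 FPKM in the BG136 tumors, against a lowest, median and highest of 3.21, 3.59 and 6.06 FPKM in vehicle tumors. The groups did not overlap, and replicate 6, which reached the vehicle range for the hormones, was low here. The margin was within counting error, since Sncg rested on 15 to 70 reads per library. BG136 replicate 1 and vehicle replicate 1, the nearest samples, held 40 reads each. Their 95% Poisson intervals were 2.17 to 4.13 and 2.29 to 4.37 FPKM. Sncg averaged 2.05 ± 0.63 FPKM in BG136 tumors and 3.96 ± 1.06 FPKM in vehicle tumors, a difference of -0.70. Fabp4 and Sncg were the only members whose groups did not overlap. In the whole table this held for 13 of 11356 genes in the same direction, or 0.114%, and nothing is read from the members' count because they were chosen on this contrast. Without BG136 replicate 6 the count was 6 (Adipoq, Cfd, Retn, Fabp4, Sncg and Car3), beside 0.274% of the genes tested in those samples. Without vehicle replicate 3 it was 4 (Adipoq, Cfd, Fabp4 and Sncg), beside 0.186%. Without BG136 replicate 7-9 it was 3 (Pparg, Fabp4 and Sncg), beside 0.23%.

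Car3 encodes carbonic anhydrase 3, an enzyme of adipocytes that skeletal muscle also contains in quantity. Car3 was at 14.4, 9.34, 13.3, 18.6 and 9.98 FPKM in the BG136 tumors, against a lowest, median and highest of 16.9, 20.7 and 38.5 FPKM in vehicle tumors. Again BG136 replicate 6 was the one that entered the vehicle range. The means were 13.1 ± 3.7 FPKM in BG136 tumors and 23.5 ± 7.9 FPKM in vehicle tumors, a difference of -0.78.

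The median difference was -0.91 over the 4 hormone genes and -0.07 over the 2 transcription factor genes, a gap of -0.84, while the median over all 11356 genes was 0.02. The 2 sets were not cleanly split, since Pparg, at -0.20, differed more than the hormone gene Lep, at -0.10. Part of the gap depends on scale, since Retn, Lep and Pparg are low and the added 1 FPKM shrinks their differences; with 0.1 FPKM added, Retn was at -1.47, Lep at -0.44 and Pparg at -0.47, and the gap was -1.29. The ratio of Adipoq to Pparg was 6.66, 1.94, 1.497, 12.04 and 1.46 in the BG136 tumors and ran from 4.19 to 12.2 in vehicle tumors, so that 2 BG136 tumors lay inside the vehicle range and 3 far below it. Cfd per unit of Cebpa averaged 1.05 ± 0.77 in BG136 tumors and 2.77 ± 1.26 in vehicle tumors (SD, n = 5 and 6).

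In limma's fit of the whole table, 0 of 11356 genes (0.0%) passed an adjusted p of 0.05, among them none of the 7 members that passed the filter. At an unadjusted p under 0.05 there were 233 genes, and voom on recovered reads also called 0, with 281 at that level. In the authors' deposited table, 9 genes had a q-value under 0.05, and Adipoq (log2 fold change -1.50, q = 0.0184) and Car3 (log2 fold change -0.92, q = 0.0406) were among them. The authors' deposited table gave Fabp4 and Sncg a q of 0.0838 each and Cfd one of 0.217. That table has BG136 replicates 7 and 9 among its libraries, and its base mean for BG136 equals the mean over all 6 of them. With all 12 libraries as separate samples, limma's fit called 0 of 11396 genes, with 443 at an unadjusted p under 0.05. Why the authors' calls differ was not tested.

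**Figure D2:**
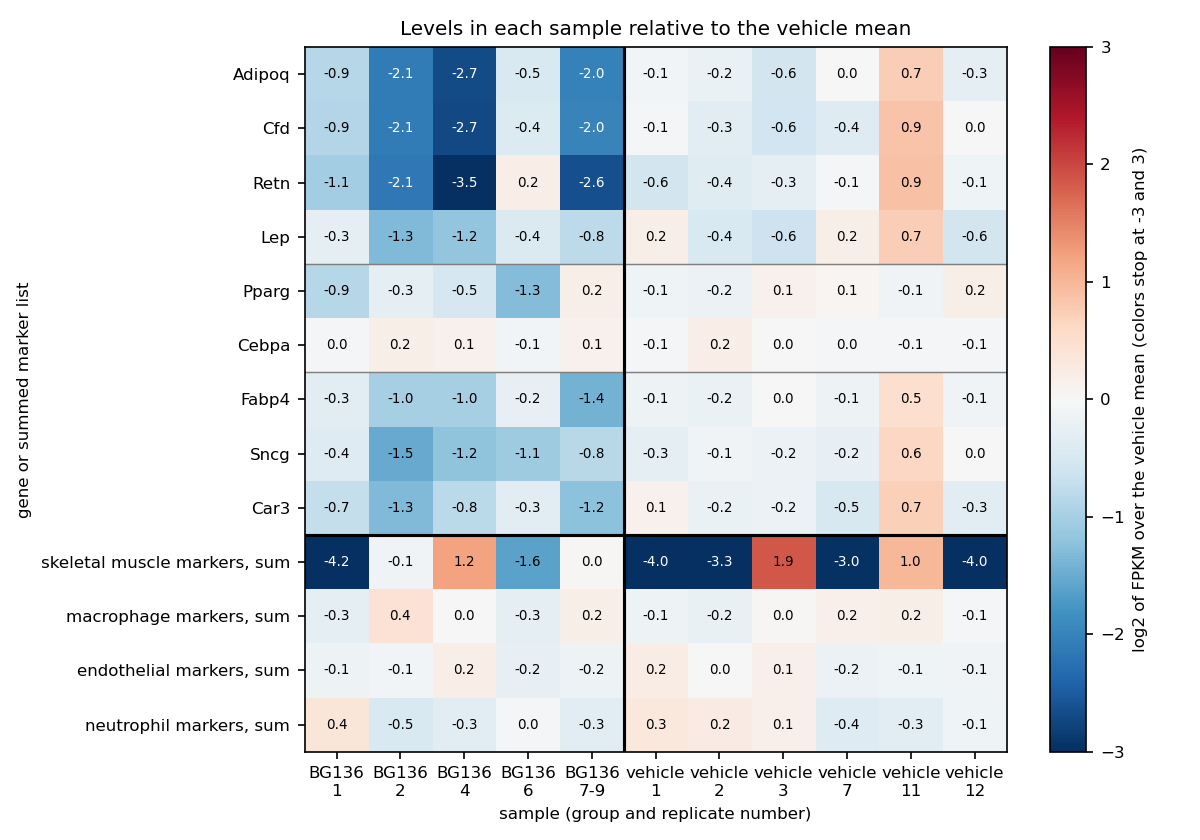
Log2 of FPKM over the vehicle mean for the 9 genes and for 4 summed marker lists (rows) in each sample (columns, BG136 left); blue is below and red above the vehicle mean, with colors capped at 3. Adipoq stands at -2.1, -2.7 and -2.0 in BG136 replicates 2, 4 and 7-9, and the skeletal muscle row varies over a wide range within both groups.

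With group means removed, Adipoq was correlated with Cfd at r = 0.97 over the 11 samples (Spearman's rho 0.918, exact permutation within groups, two-sided, p = 0.000683, adjusted over 8 genes p = 0.00278). The correlation was 0.92 with Retn (rho 0.809, exact permutation p = 0.00182, adjusted p = 0.00485) and 0.79 with Lep (rho 0.782, exact permutation p = 0.000694, adjusted p = 0.00278). Fabp4 at 0.85 (rho 0.718) and Car3 at 0.74 (rho 0.536) had adjusted exact permutation p-values of 0.0297 and 0.0325, whereas Sncg at 0.62 (rho 0.436) did not pass, with an adjusted exact permutation p of 0.0729. Both transcription factors had negative coefficients that did not pass: -0.66 for Pparg (rho -0.655, adjusted exact permutation p = 0.0786) and -0.66 for Cebpa (rho -0.673, adjusted exact permutation p = 0.0731). Unadjusted exact permutation p-values of r were 0.0149 for Fabp4, 0.0203 for Car3, 0.0547 for Sncg, 0.0786 for Pparg and 0.0640 for Cebpa. Those of rho were 0.00146 for Cfd, 0.0135 for Retn, 0.00169 for Lep, 0.0439 for Fabp4, 0.122 for Car3, 0.218 for Sncg, 0.0724 for Pparg and 0.0558 for Cebpa. Adjusted over the 8 genes, rho passed for Cfd (exact permutation p = 0.00676), Retn (0.0360) and Lep (0.00676) but not for Fabp4 (0.0878) or Car3 (0.140), so the calls of these last 2 hold for r alone. With all 12 libraries counted separately, the negative coefficient of Cebpa was -0.68 and passed (adjusted exact permutation p = 0.0463).

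These relations rest in part on BG136 replicate 6 and vehicle replicate 11, the samples farthest from the Adipoq median. Without them, r was 0.92 for Cfd, 0.81 for Retn, 0.71 for Lep, 0.64 for Fabp4 and 0.27 for Car3, and only Lep passed (adjusted exact permutation p = 0.0444). For Cfd the adjusted exact permutation p was then 0.0819, for Retn 0.146, for Fabp4 0.433 and for Car3 0.707. In the 6 vehicle tumors alone, r was 0.95 for Lep (rho 0.943, exact permutation p = 0.00278), while for Cfd r was 0.91 but rho 0.486 (exact permutation p of r = 0.0417). The 11355 other genes that passed the filter were ordered by their within-group correlation with Adipoq over the 11 samples. Cfd had rank 1 and Retn rank 2, Fabp4 rank 19, Car3 rank 123, Sncg rank 401 and Cebpa rank 10714. Lep and Pparg, under the filter, were not ranked, and Retn passed it through the vehicle tumors. The genes outside the 9 with the highest coefficients were Fabp5 at 0.91, Csnk1d at 0.91, Cdkn2b at 0.90, Lurap1l at 0.88, Magee1 at 0.88 and Rflnb at 0.87. Fabp5, another fatty acid carrier, averaged 78.0 ± 12.2 FPKM in BG136 tumors and 86.4 ± 7.7 FPKM in vehicle tumors.

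Cfd to Adipoq was 7.29, 7.24, 7.20, 7.58 and 7.38 in the BG136 tumors, against 5.56 to 8.72 in vehicle tumors. The BG136 ratios thus lay within a narrow band while Adipoq itself varied several fold among the same tumors. Counting error exceeds the width of this band. The 18 Adipoq reads of BG136 replicate 4, at 0.870 FPKM, had a 95% Poisson interval of 0.516 to 1.38 FPKM. How fixed the ratio was cannot be told from so few reads. Fabp4 to Adipoq averaged 16.8 ± 7.2 in BG136 tumors and 9.29 ± 1.96 in vehicle tumors, reaching 28.5 in BG136 replicate 4, the tumor with the lowest Adipoq. Car3 to Adipoq was 7.79 ± 4.37 in BG136 tumors and 4.28 ± 0.84 in vehicle tumors, and Sncg to Adipoq was 1.22 ± 0.58 in BG136 tumors and 0.732 ± 0.134 in vehicle tumors (SD, n = 5 and 6).

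**Figure D3:**
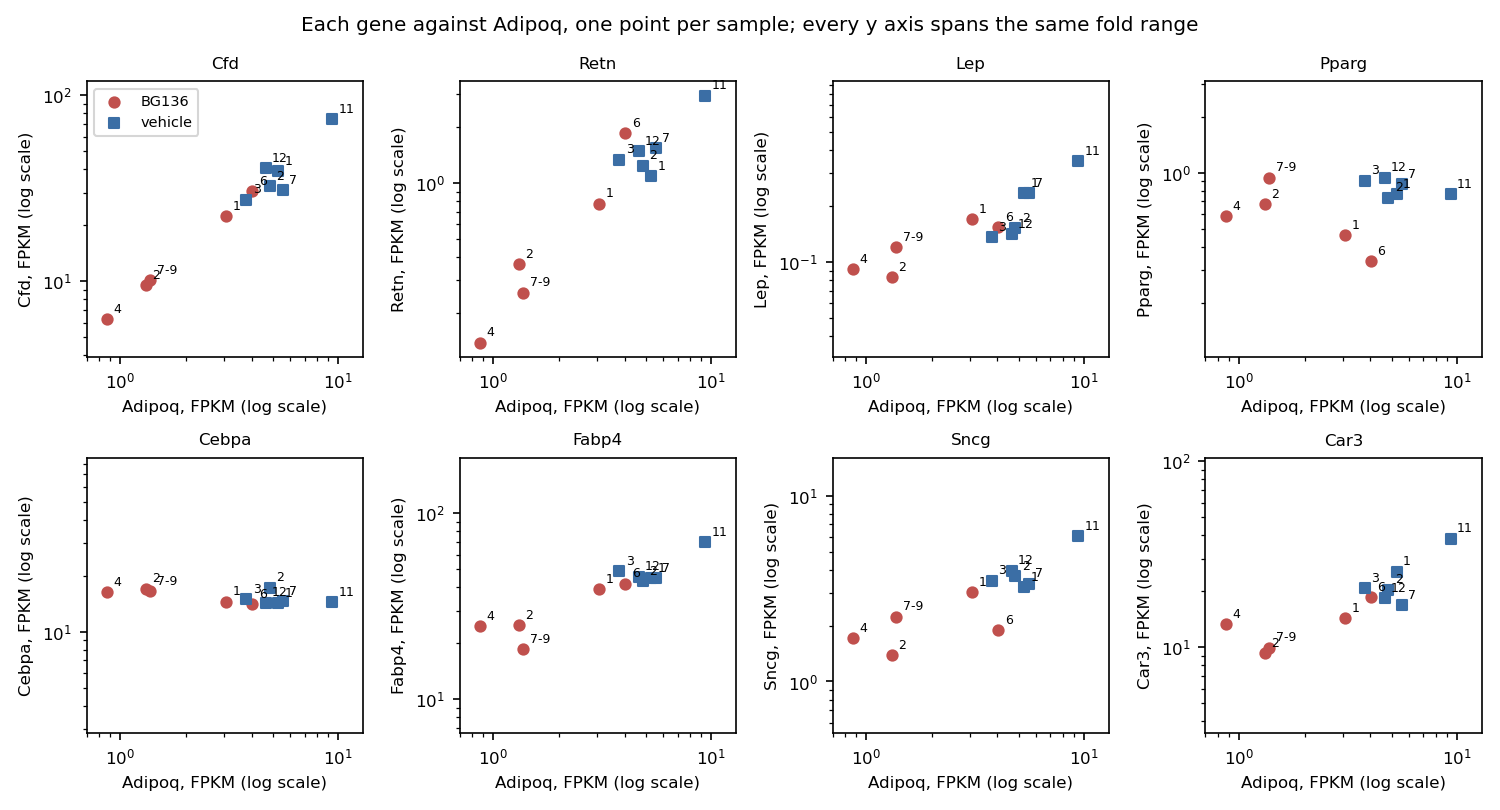
Each gene against Adipoq in FPKM (both axes logarithmic, one point per sample, numbered by replicate; every vertical axis spans the same fold range). Cfd and Retn rise with Adipoq over all 11 samples, Fabp4 and Car3 rise less steeply, and Cebpa is flat. Among the 6 vehicle tumors alone, Spearman's rho with Adipoq was 0.486 for both Cfd and Retn, and replicate 11 lies apart from the rest.

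The other genes of the fat cell were read from lists whose choice was made with earlier results known. Of 23 genes of the mature adipocyte, 13 were tested, 0 passed the adjusted threshold in limma's fit, 10 had a negative and 3 a positive difference, and the median was -0.19, against 0.02 over all genes tested. At an unadjusted p under 0.05 there were 6 of these 13, beside 233 of all 11356 genes tested. Nothing is read from this count, because the list was chosen with earlier results known. The smallest p-values belonged to the genes of the lipid droplet proteins perilipin 1 and 4 and of the droplet-fusing CIDEC. Plin1 averaged 0.756 ± 0.525 FPKM in BG136 tumors and 2.21 ± 0.81 FPKM in vehicle tumors, while Plin4 averaged 0.945 ± 0.620 FPKM in BG136 tumors and 2.21 ± 0.57 FPKM in vehicle tumors. Cidec averaged 1.40 ± 0.82 FPKM in BG136 tumors and 3.42 ± 0.56 FPKM in vehicle tumors. Its groups did not overlap, which held for 0.114% of all genes tested in the same direction. Each of the 3 had an adjusted p of 0.978 in limma's fit. All 3 passed the filter through the vehicle tumors, being at or above 1 FPKM in 6 vehicle samples and 2 BG136 samples. Nothing is therefore read from their p-values or from the lack of overlap of Cidec. The 3 genes of the list with the highest mean level were Pnpla2, Fasn and Scd1. Pnpla2, the first lipase of triglyceride breakdown, averaged 20.5 ± 2.7 FPKM in BG136 tumors and 21.9 ± 1.8 FPKM in vehicle tumors. Fasn, fatty acid synthase, and Scd1, a fatty acid desaturase, had differences of 0.04 and -0.07.

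Of 10 other secreted adipokines, 7 were tested, with 0 called, 3 negative and 4 positive differences and a median of 0.00. These are also made by many cells outside fat. Nampt, an enzyme of NAD synthesis, averaged 45.2 ± 3.4 FPKM in BG136 tumors and 42.1 ± 4.7 FPKM in vehicle tumors. Angptl4, an inhibitor of lipoprotein lipase, averaged 22.55 ± 4.32 FPKM in BG136 tumors and 30.16 ± 9.998 FPKM in vehicle tumors. Lcn2, which encodes the iron-carrier binding protein lipocalin 2, averaged 3.95 ± 3.23 FPKM in BG136 tumors and 6.24 ± 2.38 FPKM in vehicle tumors. Rarres2, which encodes chemerin, and Apln, the apelin gene, had differences of 0.12 and 0.15.

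Of 6 adipokine receptors and binding partners, 5 were tested, with 0 called, 1 positive and 4 negative differences and a median of -0.02. Adipor1, an adiponectin receptor, averaged 54.6 ± 1.7 FPKM in BG136 tumors and 55.1 ± 1.9 FPKM in vehicle tumors. Cdh13, which binds adiponectin on vessels, averaged 1.25 ± 0.22 FPKM in BG136 tumors and 1.36 ± 0.27 FPKM in vehicle tumors. Cap1, a resistin receptor described for human monocytes, averaged 152 ± 9 FPKM in BG136 tumors and 156 ± 3 FPKM in vehicle tumors. C3ar1, the receptor of a complement C3 fragment, averaged 26.2 ± 3.6 FPKM in BG136 tumors and 24.04 ± 3.16 FPKM in vehicle tumors. Lepr, the leptin receptor, was under the filter.

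Of 18 other adipogenic transcription factor genes, 14 were tested, 0 were called, 11 differences were positive and 3 negative, and the median was 0.03. Cebpb, which acts before Cebpa in adipocyte formation, averaged 78.7 ± 10.5 FPKM in BG136 tumors and 78.5 ± 4.4 FPKM in vehicle tumors. Rxra, the partner of PPARG, averaged 12.1 ± 1.2 FPKM in BG136 tumors and 11.2 ± 0.4 FPKM in vehicle tumors. Klf4, Klf9 and Srebf1 had differences of 0.19, 0.19 and 0.03.

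Of 11 PPARG target genes, 10 were tested, 0 were called, 5 differences were negative and 5 positive, and the median was -0.01. Plin2, the lipid droplet coat of many cell types, averaged 77.6 ± 7.8 FPKM in BG136 tumors and 96.6 ± 11.6 FPKM in vehicle tumors (adjusted p = 0.978 in limma's fit). Its samples did not overlap, which held for 0.114% of all genes tested in the same direction. Cd36, a fatty acid transporter, averaged 4.002 ± 1.042 FPKM in BG136 tumors and 6.005 ± 1.778 FPKM in vehicle tumors. Ucp2, a mitochondrial carrier, averaged 147 ± 43 FPKM in BG136 tumors and 145 ± 12 FPKM in vehicle tumors. Angptl4 is also on this list.

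Of 8 genes of preadipocytes and adipose stroma, 6 were tested, with 0 called, 5 positive differences and 1 negative, and a median of 0.03. Pdgfra, a receptor of adipocyte precursors and fibroblasts, averaged 24.5 ± 4.1 FPKM in BG136 tumors and 22.9 ± 4.4 FPKM in vehicle tumors. Pi16, a marker of adventitial fibroblasts, averaged 5.19 ± 1.84 FPKM in BG136 tumors and 6.83 ± 2.83 FPKM in vehicle tumors. Ly6a and Cd34, surface markers shared with other cells, had differences of 0.01 and 0.04. Of 8 brown adipocyte genes only Zic1 was tested, with a difference of 0.02, and Cox7a1 and Cox8b were under the filter.

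**Figure D4:**
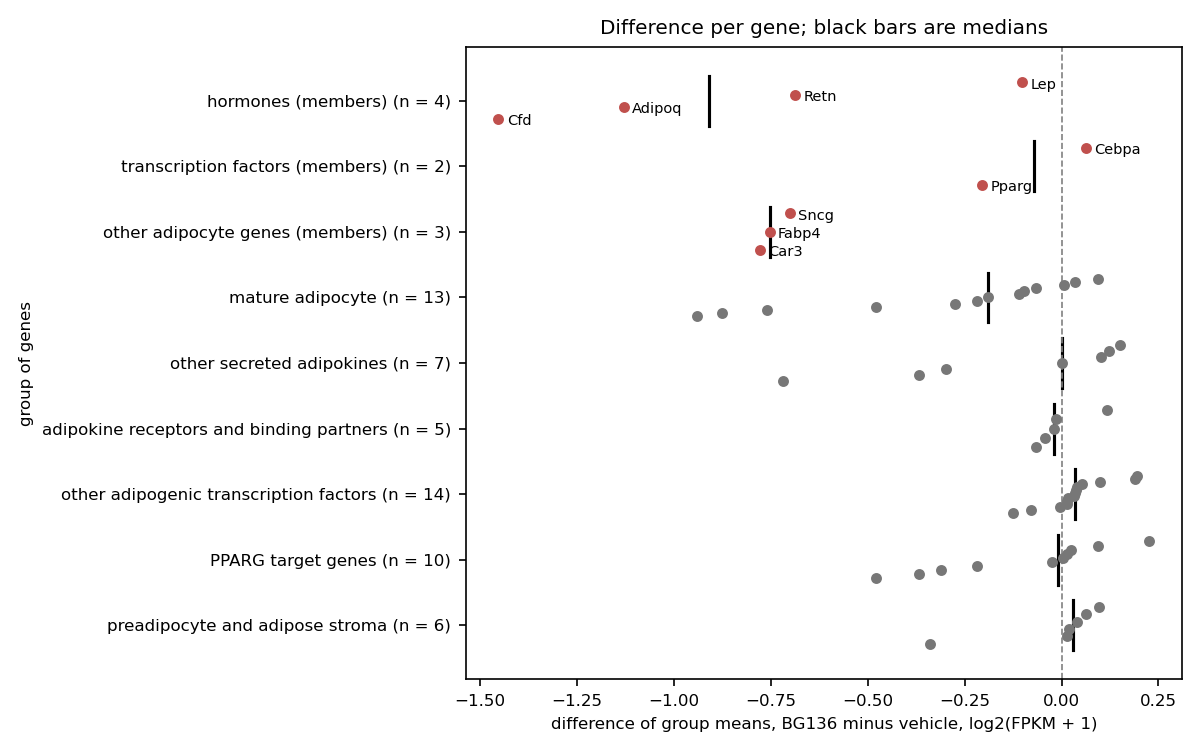
Difference of group means of log2(FPKM + 1), BG136 minus vehicle, for each of the 9 genes (red) and each tested gene of 6 lists (grey); black bars are medians. Hormone genes have a median of -0.91, and the lists of transcription factors, receptors and stroma have medians near 0.

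Markers of other cells were set beside these values. The summed level of 14 skeletal muscle markers was 5.33, 88.6, 222, 31.3 and 98.0 FPKM in the BG136 tumors, against 5.82, 9.72, 347, 12.2, 191 and 6.03 FPKM in vehicle replicates 1, 2, 3, 7, 11 and 12, and Myh4, Tnnc2 and Pvalb were listed at 0 in some samples of both groups. Of 8 tested, 0 were called in limma's fit, all 8 differences were positive, and the median was 0.69. The 3 BG136 tumors lowest for the hormones were those with a muscle sum of at least 88.6 FPKM, whereas vehicle replicates 3 and 11, also high in muscle RNA, held the lowest and the highest vehicle level of Adipoq. With the muscle score as a term in the fit, the difference was -1.08 for Adipoq, -1.39 for Cfd, -0.75 for Fabp4 and -0.80 for Car3, against -1.13, -1.45, -0.75 and -0.78 without it. Macrophage markers summed to 1376 to 2230 FPKM in BG136 tumors and 1423 to 1873 FPKM in vehicle tumors, and endothelial markers to 70.7 to 96.3 FPKM in BG136 tumors and 73.2 to 97.0 FPKM in vehicle tumors. Nerve and Schwann cell markers, which bear on Sncg, summed to 42.2 to 61.9 FPKM in BG136 tumors and 45.5 to 60.5 FPKM in vehicle tumors. Neutrophil markers summed to 48.4 to 85.0 FPKM in BG136 tumors and 50.5 to 82.3 FPKM in vehicle tumors, and skin markers to 6.42 to 9.77 FPKM in BG136 tumors and 5.90 to 10.7 FPKM in vehicle tumors. Of 63 relations between members and list scores within groups, 0 had an adjusted exact permutation p under 0.05, the smallest being 0.249. The lists included the mature adipocyte one without the members, with r of 0.81 for Adipoq, 0.79 for Cfd and 0.75 for Car3. For Pparg and Cebpa r was -0.70 and -0.63. With the macrophage score r was -0.76 for Cfd and -0.69 for Adipoq, but 0.60 for Pparg and 0.47 for Cebpa. With 11 samples the count of 0 does not show that no relation exists.

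The labelled origin of the tumors was weakly marked at RNA level. Colon epithelium markers summed to 4.68 to 35.7 FPKM in BG136 tumors and 14.3 to 31.9 FPKM in vehicle tumors. Of 6 tested, 0 were called in limma's fit, 4 differences were negative and 2 positive, and the median was -0.65. At an unadjusted p under 0.05 in that fit there was 1, beside 233 of all 11356 genes tested. Cdx1 and Cdx2 were not among the 15170 genes listed, and Krt8, Krt18, Krt20, Vil1 and Muc2 were listed at 0 in some samples. The 22 mature adipocyte markers summed to 169 to 213 FPKM in BG136 tumors and 171 to 220 FPKM in vehicle tumors, a sum dominated by Fasn and Scd1. The part of any of these cells in the adipokine differences was not tested beyond the values given.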

How the data were processed

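Total RNA of tumor blocks was made into stranded mRNA libraries, per the labels' protocols. The authors deposited 1 table of 15170 genes with FPKM for each library; its header names these columns expression, and their values identify the unit. The authors' base mean columns hold a DESeq2 signal, per the file headers. Fold (ratio), log2 fold change, p-value and q-value columns of the authors compare BG136 with vehicle. The submitters' processing notes name DESeq, HTSeq, Cufflinks, HISAT2 and Trimmomatic and the build GRCm39. Roles, versions and annotation were not given in the sources used here.

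Reads per gene and library were recovered from FPKM and the deposited base means; 100% lay within 0.1 of a whole number. BG136 replicates 7 and 9 gave a chi-square of 0.285 per gene over 13819 genes, against 7.88 to 57.4 in the other 29 pairs, and were averaged. Genes reaching 1 FPKM in 6 or more of 11 samples were fitted as log2(FPKM + 1) with limma 3.58.1 (mean-variance trend, R 4.3.3, two-sided, Benjamini-Hochberg, threshold 0.05), and the same steps were tested on simulated data. Differences on this scale understate changes of low genes. Within-group correlations used log2(FPKM + 1) with group means removed and exact permutation within groups. They were not computed for the colon epithelium list, which split the samples into separate clusters. Poisson intervals are exact, at 95%.

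The 9 members and all lists were chosen with earlier results of these data known. Named were all members, in each list the 3 genes with the highest mean and the 3 with the smallest p, and the 6 other genes most correlated with Adipoq. The alternatives tried were the pseudocount, filter, scaling, voom, all 12 libraries, left-out samples, a muscle score and a replicate block.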

Additional observations from a re-analysis of the deposited data

Results flagged for a closer look

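Of 18 groups of member values examined for a single sample far from the rest, 6 had one, where chance gives about 1 in 20 groups. In 5 of them it was vehicle replicate 11, which stood above the other vehicle tumors for Adipoq (9.36 FPKM, the others 3.79 to 5.57), Cfd (74.3 FPKM, the others 27.5 to 40.5), Retn (2.95 FPKM, the others 1.09 to 1.55), Fabp4 (70.1 FPKM, the others 43.4 to 49.0) and Sncg (6.06 FPKM, the others 3.21 to 3.95). The 5 values come from the same tumor block. For Cebpa it was vehicle replicate 2, at 17.2 FPKM with the others at 14.3 to 15.0 FPKM.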

How the results depend on the processing

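Over 21 alternatives, the differences of the 8 members other than Cebpa were below 0 in 168 of 168 cases, and Cebpa was above 0 in each. The alternatives reuse the same samples, some give identical differences, and the members were chosen on this contrast. The cases are therefore not separate checks. Leaving out 1 sample at a time, the gap between hormone and transcription factor medians ran from -1.09 to -0.69, the number of members with no overlap from 2 to 6 (beside 0.132% to 0.539% of the genes tested), and the number of genes called stayed at 0. That number of members was 1 (Sncg) in TPM, beside 0.121%; the cause was not tested. The gap was -1.38 with voom, which works on reads without the added 1 FPKM. Retn, Lep and Pparg were then at -1.79, -0.68 and -0.47.

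The replicate numbers 1, 2 and 7 occur in both groups, and same-numbered samples had correlations of 0.49, -0.42 and 0.26. For numbers 1 and 7 the best-matching vehicle sample was the same-numbered one, whereas for number 2 it was vehicle replicate 11. So few correlations of mixed sign cannot decide whether the numbers pair the samples. In the 6 samples with these numbers, 6 members had no overlap, beside 1.87% of 11356 genes, a count that does not depend on the model. In limma's fit the replicate block called 0 genes (285 at an unadjusted p under 0.05). The same samples without the number term, an alternative chosen after seeing the data, also called 0 (180). A further alternative chosen after seeing the data left out vehicle replicates 11 and 12 together, with 2 members not overlapping, beside 0.308%, and a gap of -0.69. Members correlated with Adipoq numbered 5, 6 with all 12 libraries (the sixth being Cebpa, with a negative r), and 1 (Lep) without BG136 replicate 6 and vehicle replicate 11. Depth limits Lep and Retn, with as few as 4 and 3 reads in a library.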

Other observations

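The BG136 tumor with the lowest Adipoq, replicate 4, held 18 Adipoq reads and 3 Retn reads, whereas its 33 Pparg reads gave 0.581 FPKM, within the range of the other BG136 tumors. In BG136 replicate 6, which held 79 Adipoq and 38 Retn reads, Pparg had 18 reads and 0.335 FPKM, the lowest level among the 11 samples. The 95% Poisson interval of this level was 0.199 to 0.530 FPKM. The ratio of Adipoq to Pparg in this tumor, 12.04, was close to the 12.18 of vehicle replicate 11, which held 182 Adipoq reads.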
